A study of Mus musculus with 38 samples.

Results

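The comparison described here set medial prefrontal cortex from unstressed female mutant mice against that of unstressed female control mice, by bulk RNA sequencing. Its members are the 10 libraries of the raw count table whose titles begin FMNS (5 mutant) or FCNS (5 control), of 38 libraries in the series. The mutants carry the genotype SSTCre:γ2f/f, in which Cre recombinase under control of the somatostatin gene is combined with a conditional (floxed) allele of a GABA-A receptor subunit gene. The controls carry SSTCre alone, so both groups express Cre in somatostatin cells and differ in the conditional allele. Both groups are labelled NS, non-stress, and neither was given the 21 days of chronic variable stress (CVS) that other mice of the series received. The ages of the mice, their background strain and whether the groups were littermates are not stated in the labels. The same genotypes were also sequenced in stressed females (5 mutant, 5 control) and in unstressed males (3 mutant, 5 control), and the called genes are also described in these mice below.

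GABA-A receptors are pentameric chloride channels that carry fast synaptic inhibition in the brain. They are clustered at inhibitory synapses by the scaffold protein gephyrin. Somatostatin interneurons are GABAergic cells that mainly contact the dendrites of pyramidal cells and also inhibit other interneurons, among them the fast-spiking parvalbumin cells. Somatostatin cells are a small minority of cortical cells, and the libraries measure RNA of the whole dissected tissue.

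Total counts per library, in units of 1000000, ranged from 18.2 to 24.7 over the 10 libraries. Mitochondrially encoded genes held 3.27% to 3.99% of counts. Levels below are counts per 1000000 counts (CPM) scaled by TMM normalisation, except those of tissue markers, which are CPM of the unscaled totals. The dissection held cortical markers at similar levels in both groups: Slc17a7, the vesicular glutamate transporter of cortical pyramidal cells, stood at 1691 to 1862 CPM in the controls and 1692 to 1918 CPM in the mutants. Tbr1, a transcription factor of deep-layer neurons, stood at 139 to 159 CPM in the controls and at 139.7 to 158 CPM in the mutants. Ttr, the defining transcript of choroid plexus, was at most 0.275 CPM, and Isl1, a marker of striatal cholinergic cells, was at 0 in 4 control and all 5 mutant libraries. Along the first principal component of the 500 most variable genes, which held 17.4% of their variance, the controls lay between −12.8 and −3.45 and the mutants between −1.02 and 11.4, without overlap. All 20 pairs of libraries within the 2 groups differed by more than counting noise (chi-square per degree of freedom 3.495 to 7.54), so none was treated as a repeat of another. Each title has its own number, but nothing states that each library is 1 mouse, so p-values measure only a spread between libraries. That spread was estimated over all 20 female libraries, stressed ones included, and may in part be technical.

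Sst, the peptide that defines the cells carrying Cre, had 142, 109, 125, 119.9 and 118 CPM in the controls and 128, 129.8, 143, 140.0 and 131 CPM in the mutants, with overlapping ranges. Its log2 fold change, mutant minus control, was 0.13 ± 0.0645 (SE; adjusted p = 0.629, edgeR quasi-likelihood test with Benjamini-Hochberg adjustment, as for every adjusted p below), so a lower Sst level in the mutants was not detected.

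At an adjusted p under 0.05, 21 of 16435 tested genes differed between the genotypes, which is 0.128% of those tested. Among them 7 were higher in the mutants (0.0426% of genes tested) and 14 lower (0.0852%). Most changes were small: 16 of the 21 were below 1.5-fold. The 5 mutant and 5 control libraries did not overlap in 16 of the 21 called genes, against 1.8% of all tested genes, and they overlapped in Kcng4, Megf11, Col6a2, Camk1g and Ntn4. The genes were called in these same libraries, so a high share without overlap follows from the choice and is no separate evidence. Without an adjustment, 1327 genes had a p under 0.05 (8.07% of those tested), 567 higher (3.45%) and 760 lower (4.62%). Leaving out 1 library moved the number of called genes by over 1.5 times in 7 of 10 cases: to 47 without control replicate 1, and to 12, 8, 11, 9, 10 and 6 without control replicates 2, 3, 4 and 5 and mutant replicates 3 and 5. Gm12663, Vgf, Syt12, Ccng1 and C130074G19Rik were called in all 10 of these fits, and the other called genes in 0 to 6 of them.

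**Figure D1:**
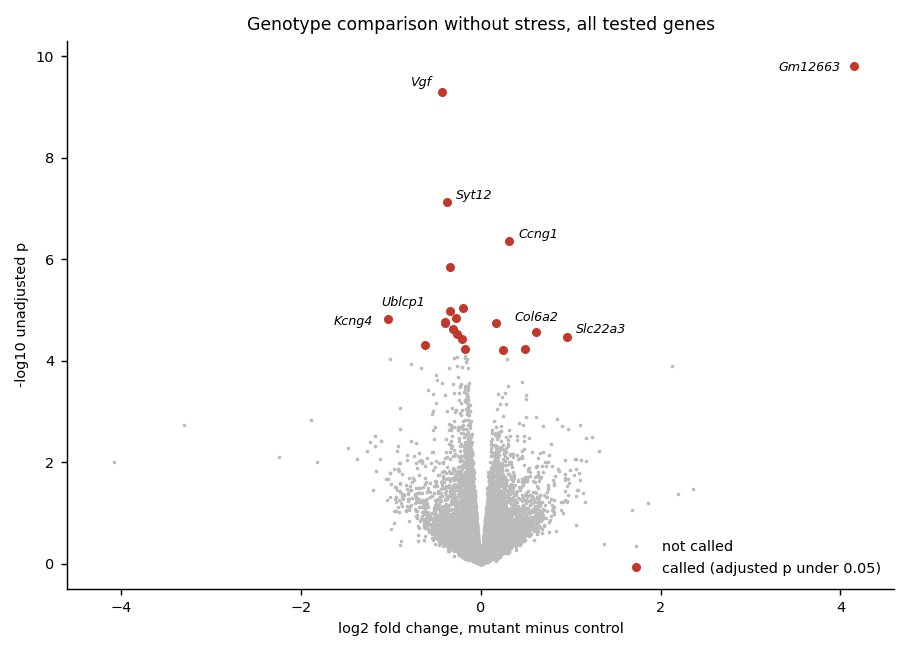
Each point is 1 of the tested genes, with the log2 fold change (mutant minus control, unstressed females) on the horizontal axis and the unadjusted p on the vertical axis as −log10. The 21 genes with an adjusted p under 0.05 are red, with a few of them named; 14 lie on the left (lower in the mutants) and 7 on the right, and 1 uncalled gene beyond ±4.6 is not drawn.

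Vgf and Syt12 had the smallest p among the genes lower in the mutants. Vgf, which encodes a neuropeptide precursor of dense-core vesicles whose transcription follows neuronal activity and neurotrophins, had 445, 426, 483, 457 and 445 CPM in the 5 controls and 301, 379.7, 334, 338 and 326 CPM in the 5 mutants. Every mutant library was below every control library, and the mean fell from 451 ± 20.9 to 336 ± 28.3 CPM (SD, n = 5 each), a decrease of 25.6%. Its log2 fold change was −0.43 ± 0.0476 (adjusted p = 4.08e-06). Syt12 encodes a synaptotagmin of synaptic vesicles that lacks the calcium-binding residues of its relatives. It had 41.03, 42.2, 47.2, 42.1 and 40.3 CPM in the controls and 34.5, 34.1, 33.04, 32.2 and 30.5 CPM in the mutants, again without overlap, and fell by 22.8% (log2 fold change −0.37 ± 0.0554, adjusted p = 4.13e-04). Ap1s1, a subunit of the AP-1 clathrin adaptor that sorts cargo at the trans-Golgi network, averaged 223 ± 7.80 CPM in the controls and 194 ± 7.78 CPM in the mutants (SD, n = 5 each). That decrease of 13.1% was small and also without overlap (adjusted p = 0.0248).

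Of the called genes, 3 encode ion channel subunits and 1 a transporter. Grin2c encodes the GluN2C subunit of NMDA receptors. Its level was 53.95, 56.6, 54.2, 56.8 and 60.3 CPM in the controls and 44.6, 49.2, 48.7, 46.6 and 44.6 CPM in the mutants, a decrease of 17.1% (log2 fold change −0.27 ± 0.0538, adjusted p = 0.0248), with no overlap. Kcnj12, which encodes the inward-rectifier potassium channel Kir2.2, had 26.5, 25.8, 25.4, 27.8 and 28.04 CPM in the controls and 18.4, 24.03, 21.6, 18.7 and 18.7 CPM in the mutants. The ranges did not overlap and the decrease was 24.2% (log2 fold change −0.40 ± 0.0802, adjusted p = 0.0248). Kcng4 encodes a silent subunit that modifies Kv2 potassium channels. It had 3.93, 3.86, 7.32, 3.69 and 6.38 CPM in the controls and 1.92, 2.68, 2.07, 3.80 and 1.97 CPM in the mutants; mutant replicate 4 lay within the control range, and the log2 fold change was −1.03 ± 0.203 (adjusted p = 0.0248). Slc22a3, an organic cation transporter that takes up monoamines, was the called solute carrier and moved the other way. Its level was 1.29, 0.927, 1.24, 1.69 and 1.48 CPM in the controls and 3.53, 1.77, 2.07, 2.67 and 2.94 CPM in the mutants, so that every mutant was above every control by a narrow margin (log2 fold change 0.96 ± 0.202, adjusted p = 0.0342).

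Camk1g, a calcium/calmodulin-dependent kinase of the CaMKI family, averaged 67.7 ± 3.89 CPM in the controls and 56.6 ± 4.42 CPM in the mutants (SD, n = 5 each), a log2 fold change of −0.26 ± 0.0542 (adjusted p = 0.0330). Map3k10, a mixed-lineage kinase upstream of JNK, was lower by 11.3% (adjusted p = 0.0476) and lost its call in each of the 10 fits that left out a library. Gng4, a G protein γ subunit, averaged 44.6 ± 3.20 CPM in the controls and 53.01 ± 2.90 CPM in the mutants (SD, n = 5 each), a log2 fold change of 0.25 ± 0.0547 (adjusted p = 0.0476). Pou3f1, a POU-domain transcription factor expressed in projection neurons, averaged 51.03 ± 3.25 CPM in the controls and 41.1 ± 4.65 CPM in the mutants (SD, n = 5 each), a log2 fold change of −0.31 ± 0.0642 (adjusted p = 0.0302). Among chromatin genes, Nap1l1, a histone chaperone of nucleosome assembly, was higher by 12.8% (adjusted p = 0.0248). Chchd10, a protein of the mitochondrial intermembrane space, was lower by 13.6% (adjusted p = 0.0365). C130074G19Rik, a protein-coding gene known by its RIKEN clone name, had 84.7, 91.3, 95.8, 92.8 and 103 CPM in the controls and 79.4, 69.3, 72.01, 78.2 and 71.1 CPM in the mutants. It did not overlap between groups (log2 fold change −0.34 ± 0.0573, adjusted p = 0.00468).

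Ntn4, a secreted laminin-related netrin of basement membranes, had 10.8, 8.03, 8.97, 5.93 and 6.65 CPM in the controls and 6.15, 5.31, 4.94, 5.24 and 4.55 CPM in the mutants. The ranges overlapped, with control replicates spread widely, and the log2 fold change was −0.62 ± 0.135 (adjusted p = 0.0448). Megf11, a multiple-EGF-repeat membrane protein found in oligodendrocyte precursors, averaged 21.1 ± 2.40 CPM in the controls and 16.2 ± 0.993 CPM in the mutants (SD, n = 5 each), a log2 fold change of −0.39 ± 0.0794 (adjusted p = 0.0248). Col6a2, a chain of collagen VI, had 16.5, 13.8, 15.4, 11.1 and 12.9 CPM in the controls and 26.6, 20.8, 20.4, 15.1 and 23.5 CPM in the mutants. Its ranges overlapped through the lowest mutant library, and the log2 fold change was 0.61 ± 0.118 (adjusted p = 0.0322). Tmem255a, a membrane protein of little-known function, averaged 8.42 ± 1.36 CPM in the controls and 11.9 ± 1.19 CPM in the mutants (SD, n = 5 each), a log2 fold change of 0.49 ± 0.108 (adjusted p = 0.0476).

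**Figure D2:**
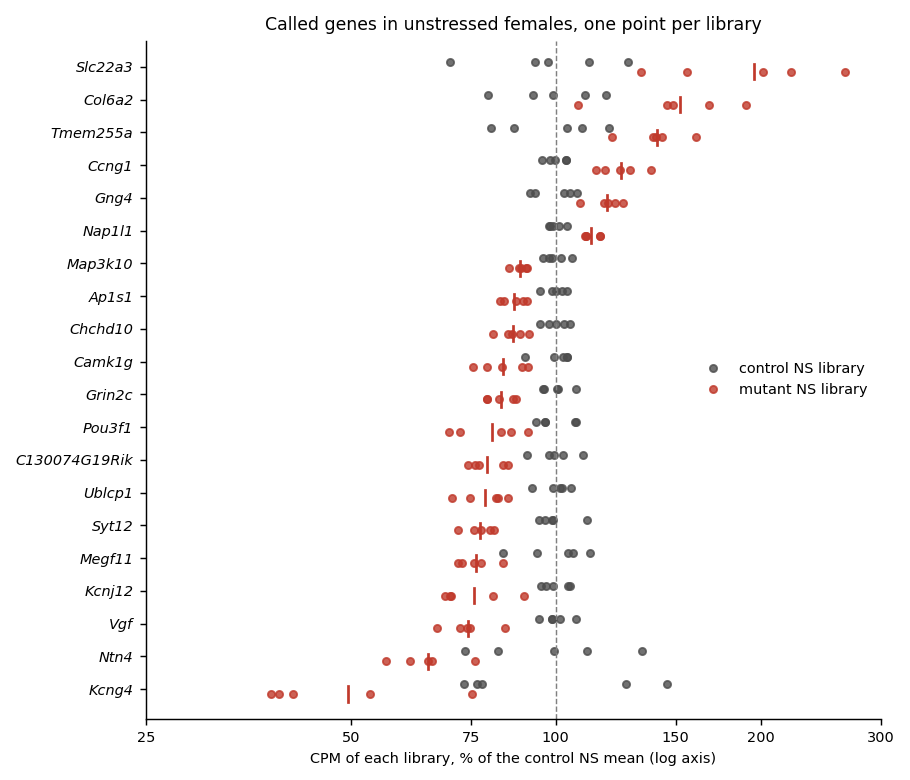
CPM of each of the 10 libraries as a percentage of the control mean (log axis), for the called genes other than Gm12663; grey points are control libraries, red points mutant libraries and red bars the mutant means. The 2 sets of points stay apart in Vgf, Syt12 and Ccng1, and mix in Kcng4, Megf11, Col6a2, Camk1g and Ntn4.

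Of the 21 called genes, 5 lie on chromosome 11, which carries the conditional allele: Gm12663, Ccng1, Ublcp1, Grin2c and Kcnj12. The chromosome held 1258 of the tested genes, and 0.397% of them were called, against 0.128% of all tested genes. Among tested protein-coding genes in chromosome order, Ccng1 lay next to the conditional allele and Ublcp1 12 places away on the other side. Grin2c and Kcnj12 were not among the 20 nearest on either side. Of these 40 neighbours, 2 were called (5%). An unadjusted p under 0.05 was found in 6 of them (15%), against 8.07% of all tested genes. Chromosomes and gene order were taken from the GENCODE annotation of GRCm38, which is not the build of the counts. The mutants carry the conditional allele and the DNA around it, and the controls do not, so a difference that comes with that DNA cannot be told apart from an effect of the deletion.

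Ccng1 was called higher in the mutants. It encodes cyclin G1, a transcriptional target of p53 that binds protein phosphatase 2A. The controls had 71.1, 73.7, 73.8, 69.9 and 67.99 CPM and the mutants 88.6, 98.4, 81.7, 91.7 and 84.2 CPM, so every mutant was above every control. The mean rose by 24.7%, a log2 fold change of 0.32 ± 0.0516 (adjusted p = 0.00180). Ublcp1, a phosphatase that acts on the nuclear proteasome, moved the other way. It had 32.6, 35.01, 37.2, 35.8 and 36.2 CPM in the controls and 29.1, 28.9, 26.4, 24.9 and 30.1 CPM in the mutants, without overlap, and fell by 21.2% (log2 fold change −0.34 ± 0.0670, adjusted p = 0.0248).

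Ccng1 is a p53 target that was called in every leave-one-out fit. It is also the nearest tested protein-coding gene on one side of the conditional allele. Neither p53 nor that position was tested as a cause of its change. The Ccng1 promoter is shown, from the RefSeq promoter table on GRCm38.p6. The run covers chr11:40755287-40755536 on the minus strand, the 250 bases before the annotated start, with the single match to the p53 half-site motif in capitals:
Ccng1 promoter: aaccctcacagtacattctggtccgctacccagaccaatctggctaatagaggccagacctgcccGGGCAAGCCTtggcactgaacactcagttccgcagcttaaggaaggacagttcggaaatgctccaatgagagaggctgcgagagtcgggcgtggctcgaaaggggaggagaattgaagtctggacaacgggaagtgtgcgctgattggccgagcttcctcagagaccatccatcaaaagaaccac
The match begins 185 bases before the start. The motif, searched on both strands under its name alone, is short and degenerate: 2216 of 27025 genes with a promoter in the table (8.2%) held a match in the same window. Of the 16 called genes with an entry, 2 held one (12.5%), Ccng1 and C130074G19Rik. In a list of p53 targets, 9 of 19 genes with an entry did (47.4%). These matches describe letters in a window and no binding was measured.

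The p53 target genes were mixed in direction. Of 22 tested members of the list, 13 were higher and 9 lower, with a median log2 fold change of 0.040, against 0.0018 over all tested genes. The median was 0.0083 without mutant replicate 2, 0.020 without mutant replicate 4, 0.026 without control replicate 3 and 0.024 without control replicate 5. Ccng1 was the 1 called member. At an unadjusted p under 0.05, 3 members were higher, Ccng1 among them, and 0 lower (background 3.45% and 4.62%). Pmaip1, the pro-apoptotic protein Noxa, had a log2 fold change of 0.40 ± 0.141 and Perp, a desmosomal p53 effector, of 0.41 ± 0.173, with adjusted p of 0.376 and 0.504.

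Gm12663, annotated as a processed pseudogene, showed the widest separation on chromosome 11. The controls had 0.413, 0.0515, 0, 0.169 and 0.0449 CPM and the mutants 1.44, 3.11, 2.96, 3.26 and 1.49 CPM; control replicate 3 had no count, and the lowest mutant was above the highest control. The test gave an adjusted p of 2.49e-06, and the fitted log2 fold change of 4.15 ± 0.445 rests on very few control counts and depends on the prior count. A processed pseudogene can share reads with its parent gene, so the assignment of these reads is uncertain. Pttg1 encodes securin, which holds separase inactive until anaphase. Pttg1 lies 4 places from the conditional allele among tested protein-coding genes and was not called (adjusted p = 0.384). It is named after its values were seen: the controls had 18.04, 18.5, 18.4, 19.4 and 17.8 CPM, and the mutants 9.84, 0.375, 0.141, 0.321 and 8.34 CPM. Mutant replicates 1 and 5 lay near the middle of the range in both genes, and mutant replicates 2, 3 and 4 were highest for Gm12663 and close to 0 for Pttg1. With limma voom in place of edgeR, Pttg1 had an adjusted p of 0.00149. Thg1l, a tRNA guanylyltransferase gene 17 places from the allele on the same side as Pttg1, was likewise named after its values were seen. Thg1l had 4.86, 6.44, 9.06, 6.19 and 6.20 CPM in the controls and 7.64, 11.4, 9.92, 9.79 and 7.01 CPM in the mutants (log2 fold change 0.47 ± 0.140, adjusted p = 0.240).

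**Figure D3:**
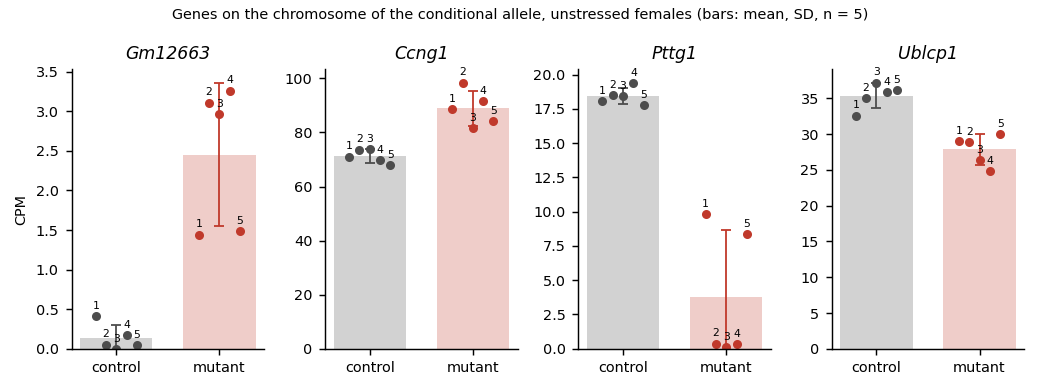
CPM of Gm12663, Ccng1, Pttg1 and Ublcp1 in the 10 libraries; points are libraries marked with their replicate number, bars are group means and error bars are SD (n = 5). Ccng1 and Ublcp1 form 1 cluster per genotype, while the mutant libraries of Pttg1 spread from 0.141 to 9.84 CPM, all below the controls.

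Markers of parvalbumin interneurons leaned lower in the mutants, although edgeR called none. Of the 12 tested markers, 9 were lower and 3 higher. At an unadjusted p under 0.05, 8 of 12 were lower and 0 higher, where 4.62% of all tested genes were lower at that level, and the list's median log2 fold change was −0.18 against 0.0018 over all genes. Syt2, the calcium sensor of fast release at the terminals of these cells, had 22.3, 33.3, 39.5, 28.7 and 37.2 CPM in the controls and 18.9, 19.7, 20.2, 24.5 and 18.7 CPM in the mutants. Its log2 fold change was −0.66 ± 0.137 (adjusted p = 0.0644). Pvalb, the calcium buffer that names the cells, had 22.9, 31.3, 39.5, 29.1 and 36.1 CPM in the controls and 21.4, 26.2, 19.5, 26.4 and 19.9 CPM in the mutants. Control replicate 1 lay within the mutant range for Pvalb, and the other controls were above every mutant. The log2 fold change of Pvalb was −0.49 ± 0.122 (adjusted p = 0.138). Kcnc1, which encodes a Kv3 channel that allows fast repolarisation, had a log2 fold change of −0.15 ± 0.0395 (adjusted p = 0.114). In this tissue fewer cells of a type and less RNA per cell cannot be told apart.

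Control replicate 1 had the lowest summed parvalbumin markers of the controls, 641 CPM against 699.7 to 716 CPM in the other 4, and the mutants ranged from 596 to 663 CPM. Without that library, Syt2, Pvalb and Kcnc1 passed the threshold, with adjusted p of 0.00120, 0.00495 and 0.0237. Over the 10 fits that left out 1 library, Syt2 passed in 2, and Pvalb and Kcnc1 in 1 each. The highest adjusted p in these fits was 0.224 for Syt2, 0.365 for Pvalb and 0.382 for Kcnc1. With all libraries, DESeq2 called Syt2, Pvalb and Kcnc1, and limma voom called Syt2. The number of markers lower at an unadjusted p under 0.05 was 6 to 8 when any 1 library was left out. In the other sets of mice the medians of the list were −0.10 (stressed females) and −0.076 (unstressed males).

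**Figure D4:**
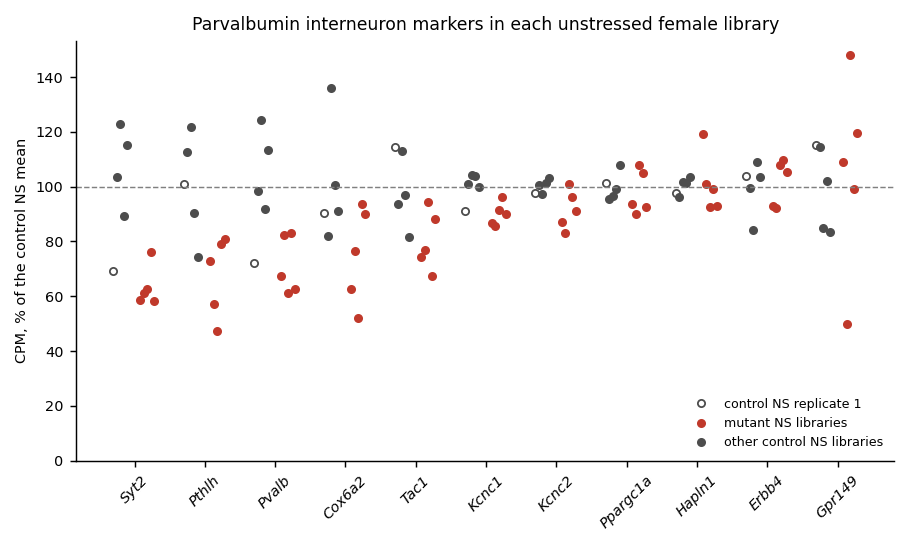
CPM of 11 of the parvalbumin interneuron markers as a percentage of the control mean, with 5 control points (grey, replicate 1 open) and 5 mutant points (red) for each gene. In Syt2 and Pvalb 1 control library, replicate 1, lies among the mutants and the other 4 lie above them.

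Of the neuropeptide and granin genes, 13 of 16 tested members were lower in the mutants and 3 were higher, with a median log2 fold change of −0.12. Vgf was called by edgeR and limma voom, and Vgf and Chga by DESeq2, and 8 of 16 were lower at an unadjusted p under 0.05, against 4.62% of all tested genes. Chga, chromogranin A of dense-core granules, had a log2 fold change of −0.17 ± 0.0426 (adjusted p = 0.105). Npy, neuropeptide Y, which part of the somatostatin cells also make, had 61.5, 68.3, 80.8, 69.6 and 71.9 CPM in the controls and 61.1, 64.4, 58.99, 60.96 and 53.3 CPM in the mutants (log2 fold change −0.24 ± 0.0703, adjusted p = 0.243). Penk, the enkephalin precursor, had a log2 fold change of −0.34 ± 0.105 (adjusted p = 0.332). Tac1, the precursor of substance P, stands in this list and among the parvalbumin and somatostatin markers, and had a log2 fold change of −0.31 ± 0.121 (adjusted p = 0.463). Oprd1, the delta opioid receptor, which parvalbumin cells express, had a log2 fold change of −0.22 ± 0.0542 (adjusted p = 0.105), and edgeR and limma voom called none of the 4 tested opioid receptor genes, while DESeq2 called Oprd1.

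Among GABA-A and GABA-B receptor genes, inhibitory scaffold genes and genes of GABA synthesis and uptake, edgeR and limma voom called none and DESeq2 called 1, Insyn1. Of 13 GABA-A receptor subunit genes with enough counts, 11 were higher and 2 lower, within a range of log2 fold changes from −0.041 to 0.18 and a median of 0.037. That median was 0.020 without control replicate 3, 0.023 without mutant replicate 3 and 0.013 without mutant replicate 4. The summed level of the subunits was 1529 to 1615 CPM in the controls and 1558 to 1667 CPM in the mutants, with overlap. Of the synaptic α subunits, Gabra2 had a log2 fold change of 0.0085 ± 0.0883 and Gabra3 of 0.0062 ± 0.0396. Of the subunits of extrasynaptic receptors, Gabra5 had 0.050 ± 0.0790 and Gabrd −0.041 ± 0.0613, on the same scale. Gabrg1 and Gabrg3, which encode the γ1 and γ3 subunits, had log2 fold changes of −0.017 ± 0.0662 and 0.048 ± 0.0556, with adjusted p of 0.974 and 0.895. Of the inhibitory postsynaptic scaffold genes, 3 of 21 were lower at an unadjusted p under 0.05 (background 4.62%), with Insyn1, a partner of gephyrin and dystroglycan, at −0.16 ± 0.0402 (adjusted p = 0.105). Of 8 genes of GABA synthesis, loading and uptake, 2 were higher and 6 lower. At an unadjusted p under 0.05, 2 of these 8 were lower and 0 higher (background 4.62% and 3.45%). Slc32a1 of this list had a log2 fold change of −0.15 ± 0.0493 (adjusted p = 0.353).

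Somatostatin cell markers were mixed: 8 of 21 were higher and 13 lower, with a median of −0.060. At an unadjusted p under 0.05, 2 were higher and 3 lower (background 3.45% and 4.62%), and none was called by edgeR, DESeq2 or limma voom. Nos1, the neuronal nitric oxide synthase of long-range somatostatin cells, had a log2 fold change of 0.18 ± 0.0736 (adjusted p = 0.487). Myh8, a myosin heavy chain gene that marks a subset of these cells, had a log2 fold change of 1.06 ± 0.409 (adjusted p = 0.459). Of the members with the smallest p, Myh8 and Nos1 were higher and Npy and Tac1 lower, so they did not share a direction. The median was −0.026 without control replicate 4, −0.023 without mutant replicate 2 and −0.038 without mutant replicate 5. Gad1 and Gad2, the GABA-synthesising enzymes of all these interneurons, had log2 fold changes of −0.12 ± 0.0424 and −0.077 ± 0.0449 (adjusted p = 0.375 and 0.718).

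Of 19 genes of the excitatory postsynaptic scaffold, 16 were lower and 3 higher, with a median of −0.083, and 7 were lower at an unadjusted p under 0.05 (background 4.62%). None was called by edgeR, DESeq2 or limma voom. Cacng8 and Cacng2, auxiliary subunits of AMPA receptors, had log2 fold changes of −0.15 ± 0.0452 and −0.14 ± 0.0450, and Shank1, a scaffold of the density, had −0.12 ± 0.0392 (adjusted p = 0.279, 0.300 and 0.296). Of 30 presynaptic vesicle genes, 11 were higher and 19 lower, with a median of −0.024. At an unadjusted p under 0.05, 1 was higher and 6 lower (background 3.45% and 4.62%). That median ranged from −0.037 without mutant replicate 3 to −0.0036 without control replicate 4. Cplx1, a complexin that clamps and triggers release and is abundant in inhibitory cells, had −0.21 ± 0.0551 (adjusted p = 0.138). DESeq2 called Cplx1 and Syt2 of this list, limma voom called Syt2, and edgeR called none. The called gene Grin2c was 1 of 11 AMPA and NMDA receptor subunit genes, of which 5 were higher and 6 lower. Immediate early genes, which neuronal activity induces, had a median of −0.054, with 11 higher and 20 lower of 31. At an unadjusted p under 0.05, 1 was higher and 5 lower (background 3.45% and 4.62%). The median was 0.023 without mutant replicate 1, −0.024 without control replicate 3 and −0.090 without mutant replicate 4, so its sign rests on 1 library. The summed level of the list was 1585 CPM in mutant replicate 1, 2245 to 2485 CPM in the other mutants and 2127 to 2569 CPM in the controls. Npas4, an activity-dependent factor that regulates inhibitory synapses, had a log2 fold change of 0.63 ± 0.234, while Nptx2, a pentraxin secreted onto parvalbumin cells, had −0.29 ± 0.0937 (adjusted p = 0.466 and 0.364). The medians of this list ranged widely in the other mice, at 0.24 in stressed females and −0.56 in unstressed males.

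Nuclear-encoded energy genes and translation genes differed little in level. Of 12 mitochondrially encoded protein genes, 11 were lower and 1 higher, with a median of −0.084. At an unadjusted p under 0.05, 0 of these 12 were lower (background 4.62%). Their median ranged from −0.13 without control replicate 4 to −0.046 without control replicate 2. Of 75 nuclear-encoded oxidative phosphorylation genes, 58 were lower and 17 higher, with a median of −0.039, and 7 were lower and 1 higher at an unadjusted p under 0.05 (background 4.62% and 3.45%). The median was −0.016 without control replicate 3, −0.023 without mutant replicate 3 and −0.024 without mutant replicate 5. Ndufs7, a complex I subunit, had a log2 fold change of −0.16 ± 0.0433 (adjusted p = 0.136), and was called by DESeq2, while edgeR and limma voom called none of the list. Of 80 cytosolic ribosomal protein genes, 56 were higher and 24 lower, with a median of 0.021; 5 were higher and 0 lower at an unadjusted p under 0.05 (background 3.45% and 4.62%), and none was called by any of these tools. That median ranged from −0.00054 without control replicate 4 to 0.037 without control replicate 3, and moved by over 1.5 times also without control replicates 1 and 2 or mutant replicates 3 and 4.

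Markers of non-neuronal cells were counted beside the called genes. Myelin and mature oligodendrocyte genes were lower in 18 of 20 (median −0.11) and astrocyte genes in 13 of 15 (median −0.076), with 6 and 4 members lower at an unadjusted p under 0.05, against 4.62% of all tested genes. The myelin median was −0.069 without control replicate 3 and −0.17 without mutant replicate 3. Mag, the myelin-associated glycoprotein, had a log2 fold change of −0.26 ± 0.0768 (adjusted p = 0.250). S100b, a calcium-binding protein of astrocytes, had −0.21 ± 0.0495 (adjusted p = 0.0644). Endothelial and pericyte genes were lower in 13 of 17 (median −0.14), and microglial genes in 13 of 16 (median −0.071), with 1 and 2 members lower at an unadjusted p under 0.05 (background 4.62%), of which the endothelial share is near the background. The endothelial median was −0.22 without control replicate 4 and the microglial one −0.041 without mutant replicate 3. In these 4 lists edgeR and limma voom called 0 genes and DESeq2 called 1, S100b. Oligodendrocyte precursor genes, of which the called gene Megf11 is 1, were higher in 7 of 13 and lower in 6. At an unadjusted p under 0.05, 1 of the 13 was higher and 3 lower (background 3.45% and 4.62%).

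Meningeal fibroblast genes went the other way, beside the called collagen gene Col6a2 and the transporter gene Slc22a3. Of 13 markers, 12 were higher in the mutants and 1 lower, with a median of 0.34, and none had an unadjusted p under 0.05 or was called by edgeR, DESeq2 or limma voom. Their summed level was 85.2 to 156 CPM in the controls and 137 to 226 CPM in the mutants, and control replicate 4 was the lowest library. Col1a2 and Col3a1, fibrillar collagen chains, had log2 fold changes of 0.38 ± 0.213 and 0.58 ± 0.404 (adjusted p = 0.707 and 0.797). No library had these collagen transcripts at 0, and their part in the Col6a2 and Slc22a3 results was not tested. Markers of neighbouring tissue were mixed in direction: of 12 striatal genes 5 were higher and 7 lower. At an unadjusted p under 0.05, 1 striatal gene was higher and 3 lower (background 3.45% and 4.62%). The summed striatal level was 255 to 268 CPM in the controls and 241 to 252 CPM in the mutants, without overlap. Ppp1r1b, the dopamine-signalling inhibitor DARPP-32, lies on the chromosome of the conditional allele. Its log2 fold change was −0.23 ± 0.0568 (adjusted p = 0.105). Ppp1r1b averaged 64.4 CPM in the controls and 55.0 CPM in the mutants. Penk, which is also in the neuropeptide list, averaged 37.1 and 29.5 CPM. The summed striatal level averaged 260 and 246 CPM, and it was not taken without Ppp1r1b and Penk. DESeq2 called Ppp1r1b and 1 higher striatal gene, while edgeR and limma voom called none. Cdhr1, a cadherin of olfactory bulb output neurons, had a log2 fold change of 0.69 ± 0.205 (adjusted p = 0.242).

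The same 21 genes were then read in the other mice. The stressed females are not in the contrast that called the genes, but their libraries are in the same fit and share its filter and its estimate of the spread; the males have their own fit. In stressed females, 19 of 21 had the same sign as in the unstressed females, 10 of 21 with an unadjusted p under 0.05 and 0 with one in the opposite direction. Over all tested genes, 57.6% had the same sign and 5.11% had it with such a p. The genotype fit of the stressed females called 4 genes of 16435 (0.0243%), and all 4 are among the 21: Gm12663, Ccng1, Ublcp1 and Vgf. In unstressed males, 20 of 21 had the same sign, 10 with an unadjusted p under 0.05 and 0 opposite, against 56.4% and 4.29% of all genes. The male fit called 3 of 17212 genes (0.0174%), 2 of them, Gm12663 and Ccng1, among the 21. With 1 library left out, the 2 lower calls in stressed females were lost without control replicate 4 or 5 or mutant replicate 1, 2 or 4, which left 2 calls. The male count was 6 without control replicate 4, 0 without control replicate 5, and 1 without mutant replicate 1 or 3. Outside chromosome 11, 14 of 16 called genes had the same sign in stressed females (6 with such a p) and 15 of 16 in unstressed males (6 with such a p).

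Ccng1 and Ublcp1 had similar changes in the other mice. Ccng1 had a log2 fold change of 0.38 ± 0.0518 in stressed females (adjusted p = 8.94e-05) and 0.28 ± 0.0519 in unstressed males (adjusted p = 0.0464). Ublcp1 had −0.38 ± 0.0673 (adjusted p = 0.0146) and −0.37 ± 0.0962 (adjusted p = 0.665). Vgf ranged over 400.0 to 436 CPM in stressed controls and 322 to 385 CPM in stressed mutants. Its log2 fold change was −0.27 ± 0.0476 there (adjusted p = 0.0166) and −0.39 ± 0.119 in males (adjusted p = 0.665). Syt12, with −0.099 ± 0.0553 and −0.099 ± 0.0780, was not called in either (adjusted p = 0.755 and 0.936). Male libraries differ from female ones in their makeup: the most abundant gene ID held 4.94% to 5.49% of counts in the female controls and 0.0451% to 0.0767% in the male controls.

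The median size of the change over the 21 genes was 0.34 (log2) in the unstressed females, where they were chosen, and in the same direction 0.12 in stressed females and 0.18 in unstressed males. A size falls on average outside the libraries in which genes were chosen, so the medians are not a test of stress or sex. The interaction of genotype and stress in females called 0 genes with edgeR, 0 with DESeq2 and 0 with limma voom, with 658 genes at an unadjusted p under 0.05 (4%). The difference of the genotype effect between unstressed females and males likewise called 0 with each of these tools, with 728 genes at an unadjusted p under 0.05 (4.12%).

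**Figure D5:**
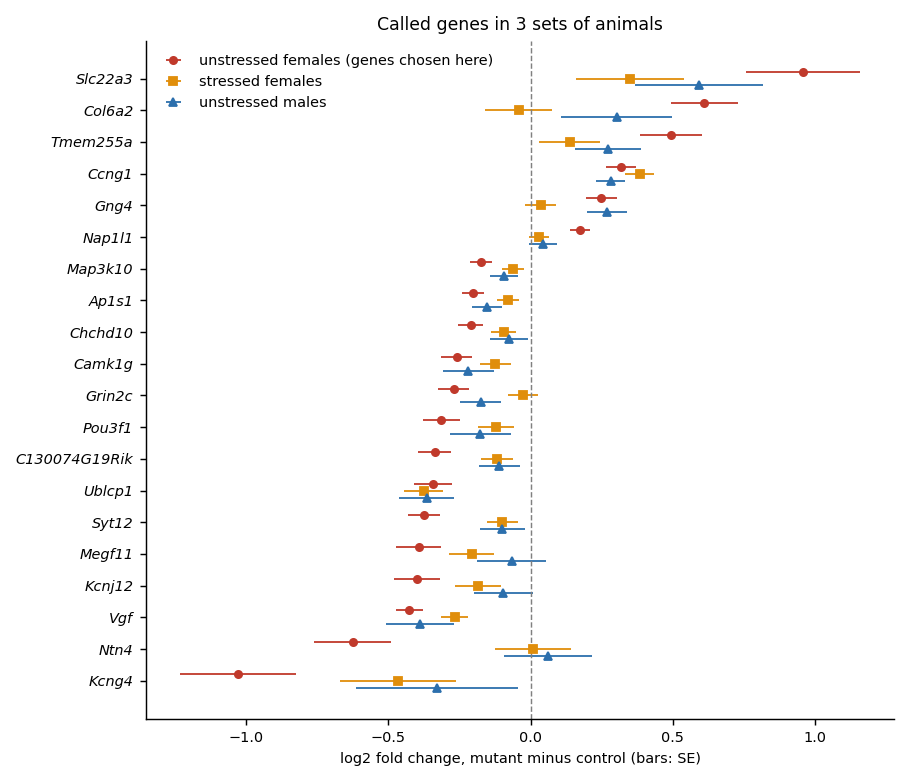
Log2 fold change, mutant minus control, with its SE, for the called genes other than Gm12663 in unstressed females (red, where the genes were chosen), stressed females (orange) and unstressed males (blue). Ccng1 and Ublcp1 lie at similar values in the 3 sets, and Ntn4 lies near 0 outside the unstressed females.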

How the data were processed

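RNA was extracted from dissected medial prefrontal cortex, and polyadenylated RNA was sequenced as strand-directed paired-end libraries, per the labels' protocols. The deposited values are raw counts per gene ID, 57010 IDs in 38 libraries; fastp 0.23.2, STAR 2.7.10b, featureCounts and GRCm39 are named per the submitters' processing notes, and neither source states the annotation release or the strand setting. Symbols came from GENCODE and gene name tables and matched 52029 IDs.

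The count test was edgeR 4.0.16 (R 4.3.3; TMM, filterByExpr with a minimum count of 10, robust quasi-likelihood) on all 20 female libraries in 4 groups, which share one estimate of the spread. Males and the sex difference had their own fits. Benjamini-Hochberg adjustment ran over all tested genes, with a threshold of 0.05. Each SE was taken from the fold change and its F statistic, as |log2 fold change|/√F. limma 3.58.1, DESeq2 1.42.0 and sva 3.50.0 gave alternatives. Members, 38 gene lists and tests were chosen with earlier results of these data known. The text names up to 14 called genes per direction by p, up to 4 members of each list described, Sst and a set of GABA-A receptor genes; tissue markers, Pttg1, Thg1l and the parvalbumin marker counts across settings were added after the data were seen, and some genes are not reported here. On simulated data the script recovered 36.4% of genes changed 1.2-fold, 71.6% changed 1.5-fold and 79.4% changed 2-fold. The simulation called 126 genes, against 21 in the data. These shares depend on how many genes change, so they may be too high for the comparison described here.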

Additional observations from a re-analysis of the deposited data

Results flagged for a closer look

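In 6 of 166 groups of 5 libraries examined (2 groups for each of 83 genes), 1 library lay far from the other 4 by Dixon's test at the 95% level. That is 3.61% of the groups. Many of these genes were chosen by their p in the same libraries, and all share those libraries. The share therefore cannot be set against the 1 in 20 that the test gives for independent groups. Among the controls, replicate 3 was high for Syt12 at 47.2 CPM (the others reached 42.2) and replicate 2 was low for Rspo1 at 5.30 CPM (the others began at 6.29). Among the mutants, replicate 4 was high for Syt2 at 24.5 CPM (the others reached 20.2) and for Cplx1 at 498 CPM (the others reached 442). Mutant replicate 1 was low for Oprd1 at 29.5 CPM (the others began at 33.8), and mutant replicate 2 was high for Cck, the cholecystokinin gene, at 514 CPM (the others reached 466).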

How the results depend on the processing

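The number of genes called between the genotypes in unstressed females was 21. It was 118 with no filter on low counts, 90 with DESeq2, 41 with 1 surrogate variable and 7 with all 38 libraries in one fit; all 21 genes were among the 118, the 90 and the 41, and the 7 were among the 21. It was 19 with limma voom (15 shared), 27 with only the groups compared (16 shared), 21 with DESeq2's size factors in edgeR and 20 without the most abundant gene ID. Leaving out 1 library gave 6 to 47. In stressed females the count of 4 became 23 with no filter and 20 with DESeq2, and 2 to 5 when 1 library was left out. The interaction of genotype and stress became 5 with no filter and stayed at 0 with any 1 library left out. In unstressed males the count of 3 became 11 with no filter and 0 with limma voom, and 0 to 6 when 1 library was left out. The cause of these shifts was not tested. No log2 fold change of a called gene changed sign. When 1 library was left out, 3 genes with values near 0 did: Gabrg1 ranged from −0.054 to 0.017, Gabra3 from −0.0079 to 0.025 and Gabra2 from −0.047 to 0.057. No paired analysis was possible because the labels give the groups no shared replicate numbers. The counts limit genes at very low levels such as Gm12663, and 5 libraries per group limit changes as small as 1.2-fold. Of such changes 36.4% were recovered in simulated data in which 126 genes were called, and that share may be too high here.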
